A study of Mus musculus with 6 samples.

Results

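The natriuretic peptide genes Nppa and Nppb were followed in RNA sequenced from crude heart mitochondria of mice with a muscle knockout of Polrmt, the gene of the mitochondrial RNA polymerase, and of control mice. The members were the rows of the raw count tables whose Ensembl identifier belongs to Nppa or Nppb, 2 of 39177 rows, of which 39142 are nuclear and 35 are from mtDNA. Both passed the filter on low counts, Nppb through its knockout libraries alone, since its control counts were 4, 0 and 2. The knockout group held 3 mice of genotype Polrmt -/- (L/L, cre), in which exon 3 of Polrmt, flanked by loxP sites, was cut out by a cre recombinase driven by the muscle creatine kinase promoter, which is active in heart and skeletal muscle. The control group held 3 mice of genotype Polrmt +/+ in the labels (L/L), which carried the same loxP-flanked alleles without cre. All mice were C57BL/6N and 3 to 4 weeks old. The presence of cre and the loss of exon 3 go together in this design and cannot be told apart. The title of the series concerns the part of POLRMT in choosing between replication primers and gene expression of mtDNA, and the comparison made here asks how transcripts of the heart's own hormones differed in that model. Nothing in the labels says that the libraries of a group were separate preparations beyond being separate samples, so p-values measure the spread between these 6 libraries.

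Nppa encodes the precursor of atrial natriuretic peptide and Nppb that of B-type natriuretic peptide. Heart muscle cells make both precursors, which are cut by proteases, and the circulating hormones act through guanylyl cyclase receptors to raise cyclic GMP, promote salt and water loss and relax vessels. Ventricular muscle expresses Nppa in the fetus and little of it after birth, and both genes are widely used as markers of ventricular wall stress, hypertrophy and heart failure.

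The mature hormones share a ring closed by a disulfide bond between a pair of cysteines. The stretch of coding sequence that gives this ring is shown for Nppb and for Nppc, the C-type peptide gene, as an example of what the family shares. The 51 bases were read from the GRCm38 genome through the GENCODE M21 transcripts, lie within exon 2 of both genes and are written 5′ to 3′ on the coding strand, with the codons of the cysteines in capitals. Nppb is read at chr4:147986464-147986514 (+) and Nppc at chr1:86669667-86669717 (-).
Nppb ring: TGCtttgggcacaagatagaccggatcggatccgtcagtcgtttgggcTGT
Nppc ring: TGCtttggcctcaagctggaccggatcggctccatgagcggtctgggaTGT
Nppb and Nppc had the same base at 40 of these 51 positions (78.4%) and coded for the same residue in 13 of 17 codons.

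Nppb (ENSMUSG00000029019) lies at chr4:147985788-147987205 and Nppa (ENSMUSG00000041616) at chr4:148000722-148002079 in GRCm38, both on the forward strand and each with 3 exons, with 13516 bases between them. Parts of their upstream sequence, from RefSeq on GRCm38.p6, are shown because the genes are neighbours that differed in the same direction between the groups. The first stretch is the 130 bases before the start of Nppa, chr4:148000592-148000721 (+). The second is a 30-base stretch from 105 to 76 bases before the RefSeq start of Nppb, chr4:147985795-147985824 (+), which in GENCODE lies inside the first exon because that annotation starts the gene 112 bases earlier. Capitals mark matches, on either strand, to GATA (the core of GATA factor sites), TATAAA (the TATA box), AAGTG (the core of NKX2-5 sites) and CATTCC (sites of TEAD factors).
Nppa upstream: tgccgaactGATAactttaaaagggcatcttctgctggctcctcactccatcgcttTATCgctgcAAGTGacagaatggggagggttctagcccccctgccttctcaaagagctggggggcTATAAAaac
Nppb upstream: GGAATGcagctGATAaatcagaGATAaccc
In windows of 300 bases around the RefSeq starts, GATA occurred at 2 places in both genes, against at least 1 match in 57.9% of 32851 mouse promoters. TATAAA occurred once in both, AAGTG at 2 places in Nppa and none in Nppb, and CATTCC at none in Nppa and 1 in Nppb. At least 1 match was found in 13.6% of all promoters for TATAAA, in 46.4% for AAGTG and in 14.7% for CATTCC. The E-box, CANNTG, occurred at 2 places in Nppa, 1 of them overlapping an AAGTG match, and at 1 in Nppb, and was present in 72.3% of all promoters. Neither window matched TGANTCA (AP-1, 7.81% of promoters), TGATGNAA (CEBP-ATF composite sites, 3.97%), the CArG box (1.63%) or the MEF2 site (3.19%). Motifs of this length occur in many promoters, and a match is a description of letters.

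Gene-assigned counts ranged from 1062030 to 1227997 in knockout libraries and from 2867067 to 3234729 in control libraries. mtDNA took 21.1 to 25.8% of them in knockouts and 79.5 to 83.5% in controls, which left 838015 to 910826 nuclear counts in knockouts and 499334 to 586461 in controls. Values are therefore given as counts and as CPM of nuclear counts, scaled by TMM over nuclear genes, a method that sets the bulk of nuclear transcripts to no change. Between 80.6 and 84.9% of nuclear counts fell on 5 loci that collect ribosomal RNA reads. Expressed as CPM, 3 counts correspond to 3.10 to 4.09 in knockouts and 4.77 to 6.60 in controls. Polrmt, the targeted gene, had 2, 5 and 1 counts in knockouts and 3, 2 and 1 counts in controls, which does not resolve exon 3. Heart muscle markers were abundant in every library, with 5576 to 7445 counts of the myosin heavy chain Myh6 in knockouts and 3008 to 5247 in controls. Xist and Y-linked counts showed knockout 1 and control 2 to be female and the other libraries male.

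Nppa was about 3-fold higher in the knockout preparations. It had 188, 143 and 143 counts in knockouts, against 37, 34 and 33 counts in controls. Scaled to nuclear counts these were 256, 170 and 148 CPM in knockouts and 81.4, 54.4 and 52.5 CPM in controls. The groups did not overlap, since the lowest knockout library stood 1.82 times above the highest control library and the 9 ratios between knockout and control libraries reached 4.88. Nppa averaged 191 ± 57.1 CPM in knockouts and 62.7 ± 16.2 CPM in controls (SD, n = 3 each). The fold change was 3.09 (95% interval 2.31 to 4.12), or 1.63 ± 0.20 on the log2 scale (SE), with an adjusted p of 3.95e-07 by edgeR's quasi-likelihood test. In bulk RNA, more cells with the transcript and more transcript per cell cannot be told apart, and the values describe RNA that came down with crude mitochondria, not RNA of the whole heart.

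Nppb was nearly absent from the control preparations and readily counted in the knockout ones. It had 37, 25 and 28 counts in knockouts, against 4, 0 and 2 counts in controls. These were 50.4, 29.8 and 29.0 CPM in knockouts and 8.80, 0 and 3.18 CPM in controls. Every knockout library stood above every control library, and in the control library with no count up to 4.80 CPM, the level of 3 counts, remains possible. Nppb averaged 36.4 ± 12.1 CPM in knockouts and 3.99 ± 4.45 CPM in controls (SD, n = 3 each). The fold change was 9.69 (95% interval 5.03 to 18.6), or 3.28 ± 0.47 on the log2 scale (SE), with an adjusted p of 1.27e-07 by edgeR's quasi-likelihood test. The size of this fold rests on 6 control counts: summed counts scaled by library size gave a ratio of 10.1, whose 95% Poisson interval ran between 4.46 and 28.2. The log2 fold change was 4.35 without control 1, 2.64 without control 2 and 2.37 among the male libraries alone, and each of these passed the test.

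**Figure D1:**
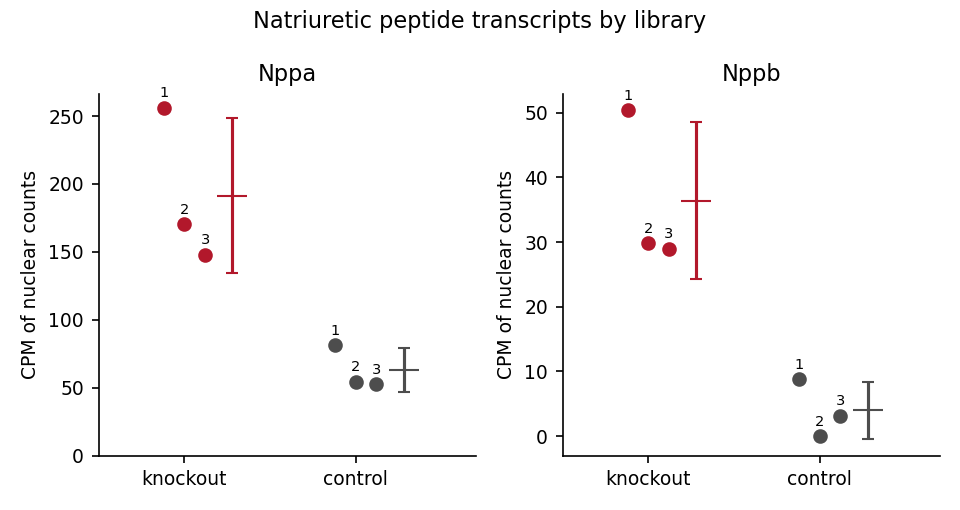
Points give the CPM of nuclear counts of Nppa (left) and Nppb (right) in each of 3 knockout and 3 control libraries, numbered by replicate, and bars beside them give the mean ± SD. Knockout libraries hold 148 to 256 CPM of Nppa and 29.0 to 50.4 CPM of Nppb, above the highest control values of 81.4 and 8.80 CPM.

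Both members were called higher, where the same threshold, an adjusted p under 0.05, called 203 of 2369 tested genes higher (8.57%) and 185 lower (7.81%). Groups that did not overlap, with knockouts higher, were seen for 16.7% of tested genes. Ordered by log2 fold change among the 2351 tested nuclear genes, Nppb was number 6 and Nppa number 48. Nppb entered the tested genes only through the group in which it was high. The median log2 fold change of all tested genes was -0.02. Knockout 1 had the highest CPM of both members in its group, and control 1 the highest in its own. Across the 6 libraries the log2 CPM of the members correlated with r = 0.96, a description over 2 separated groups. Knockout 1 is female, and without it the log2 fold change of Nppa was 1.39. Between the males alone the mean of Nppa was 2.38 times higher in knockouts than in controls, and between the single females it was 4.71 times higher.

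**Figure D2:**
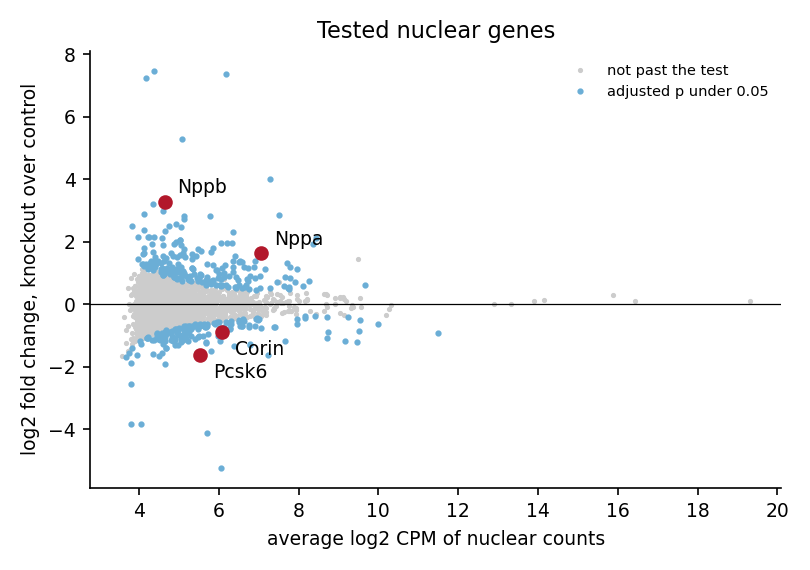
Each point is a tested nuclear gene, with its average log2 CPM on the x axis and its log2 fold change of knockout over control on the y axis; blue points pass an adjusted p of 0.05 and grey points do not. Nppb at 3.28 and Nppa at 1.63 stand among the higher genes. Corin at -0.90 and Pcsk6 at -1.63, protease genes of their processing, stand among the lower, though not against unscaled total counts.

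The balance between the peptides was examined as the log2 ratio of Nppb to Nppa counts within each library, which needs no scaling between libraries (0.5 was added to each count). It was -2.33, -2.49 and -2.33 in knockouts and -3.06, -6.11 and -3.74 in controls. The knockout libraries lay close together and above the 3 controls, which were spread widely. The mean was -2.38 ± 0.09 in knockouts and -4.30 ± 1.60 in controls (SD, n = 3 each). The difference of 1.92 had an exact permutation p of 0.1 (2-sided), the smallest that 3 against 3 allows. It was 1.02 without control 2, the library with no Nppb count, and 2.54 without control 1. In summed counts the knockouts held 90 of Nppb against 474 of Nppa, and the controls 6 against 104.

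Per kilobase of exon, Nppa stood at 221 ± 66.0 CPM per kb in knockouts and 72.5 ± 18.7 in controls (SD, n = 3 each). Nppb stood at 46.6 ± 15.6 CPM per kb in knockouts and 5.11 ± 5.70 in controls. Nppa was thus the more abundant transcript per length in both groups. Among 2348 tested nuclear genes with an annotated exon length, ordered by CPM per kb, Nppa took place 30 in knockouts and 74 in controls. In the same order Nppb took place 110 in knockouts and 945 in controls. Genes that did not pass the filter on low counts have no place in this order.

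Nppa is a defining transcript of atrial muscle, and other atrial transcripts are given beside it. Markers of atrial muscle other than the natriuretic peptides (10 genes) summed to 254 to 341 CPM in knockouts and 264 to 396 CPM in controls. Most of that sum was Pam, with a mean of 208 CPM in knockouts and 217 CPM in controls. The sum therefore says little about the other atrial markers. Of the 10 markers edgeR tested 3 and called 1, Clu, lower, and DESeq2 called 0 of 5 lower. The atrial light chains Myl4 and Myl7, the most specific of these, together gave 46.3, 8.34 and 36.2 CPM in knockouts and 37.4, 28.8 and 15.9 CPM in controls. Knockout 2 had the lowest light chain value of the 6 libraries, from 7 counts, with Nppa at 170 CPM and Nppb at 29.8 CPM. Knockout 1 had the highest, from 34 counts, with Nppa at 256 CPM and Nppb at 50.4 CPM. The part of atrial tissue in the members' values was not tested. Among the atrial markers with few counts, Sln had 0, 0 and 2 counts in knockouts and 2, 1 and 3 in controls, Gja5 had 2, 3 and 3 in knockouts and 0, 0 and 1 in controls, and Bmp10 had 9, 3 and 11 in knockouts and 4, 0 and 10 in controls. Summed counts scaled by library size gave ratios of knockout to control of 0.22 for Sln, 5.38 for Gja5 and 1.11 for Bmp10. For the other untested markers they were 1.01 for Myl7, 0.91 for Dkk3, 0.78 for Nr2f2 and 0.67 for Kcna5. Only Gja5, with 8 counts against 1, stood far above 1, and the 95% Poisson interval of each ratio included 1.

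**Figure D3:**
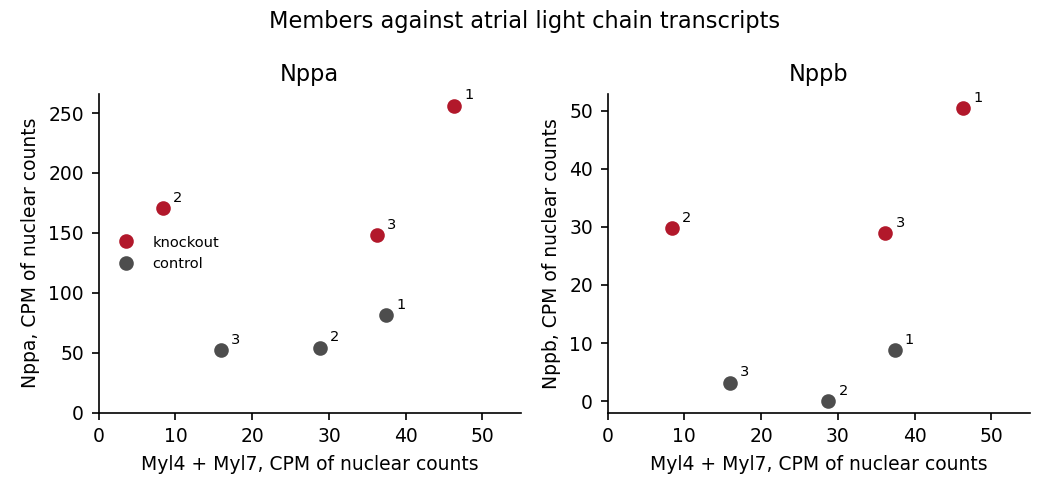
The summed CPM of the atrial light chains Myl4 and Myl7 is on the x axis and the CPM of Nppa (left) or Nppb (right) on the y axis, one point for each numbered library, knockouts red and controls dark grey. Knockout 2 has the least light chain transcript, 8.34 CPM from 7 counts, and knockout 1 the most, 46.3 CPM. Every knockout lies above all controls for both peptides.

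The members were also set against a list of 10 genes drawn up for ventricular muscle, within each library and again without scaling between libraries. The list was not limited to genes specific to the ventricle, and Myh6 alone held 19298 of its 27291 counts in knockouts. In controls Myh6 held 13126 of 20525, so the ratios are mostly to Myh6. For every 1000 counts of the list, there were 24.4, 16.3 and 13.2 counts of Nppa in knockouts and 7.52, 4.55 and 4.05 in controls. The same ratio for Nppb was 4.80, 2.86 and 2.58 in knockouts and 0.813, 0 and 0.246 in controls. Neither ratio overlapped between the groups, and each had an exact permutation p of 0.1 (2-sided), the smallest possible. The summed ventricular list was 10430 to 11204 CPM in knockouts and 10817 to 12953 CPM in controls. Of the 7 tested genes of that list 3 were called lower, 1 of them the troponin Tnnt2. Summed markers of fibroblasts were 1606 to 1833 CPM in knockouts and 1816 to 1975 CPM in controls, and those of macrophages and blood 176 to 303 CPM in knockouts and 185 to 361 CPM in controls. Endothelial markers gave 247 to 301 CPM in knockouts and 318 to 352 CPM in controls, and smooth muscle markers 185 to 275 CPM in knockouts and 310 to 365 CPM in controls. Of the tested markers, edgeR called 2 of 8 lower for fibroblasts, 2 of 4 for smooth muscle, 1 of 5 for macrophages and blood and 0 of 6 for endothelium, where 2 were lower at an unadjusted p under 0.05. DESeq2 called 3 of 7 lower for the ventricular list, 1 of 8 for fibroblasts and 1 of 4 for smooth muscle. It called 1 of 5 lower for macrophages and blood and 0 of 7 for endothelium. Of all tested genes, edgeR called 7.81% lower, and of the 2351 nuclear ones 167. DESeq2, run on nuclear genes only, called 62 of 3465 lower. In these lists and those of atrial and ventricular muscle, 0 were called higher by edgeR or DESeq2 and 0 were higher at an unadjusted p under 0.05 in edgeR. The part of these differences in the members' values was not tested.

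Of 12 other genes annotated within 100 kb of the pair, 2 had enough counts to be tested, and neither passed the test. Mfn2, which encodes a fusion protein of the outer mitochondrial membrane, had 90, 124 and 133 counts in knockouts and 75, 93 and 86 in controls (log2 fold change -0.13, SE 0.15, edgeR adjusted p = 0.622). Plod1, a lysyl hydroxylase of collagen, had 24, 27 and 37 counts in knockouts and 18, 32 and 27 in controls (log2 fold change -0.38, SE 0.24, edgeR adjusted p = 0.300). Clcn6, a chloride transporter gene 2179 bases from Nppa, had 4, 4 and 4 counts in knockouts and 0, 1 and 5 in controls. Agtrap had 8, 5 and 8 counts in knockouts and 9, 8 and 3 in controls, and 2510039O18Rik had 7, 5 and 7 in knockouts and 6, 4 and 4 in controls. The pseudogene Chchd2-ps had 2 counts in knockouts and 2 in controls. Draxin and 4 predicted genes had no count in any library. Gm13054, 1 of these, is annotated on the opposite strand over 532 of the 865 exonic bases of Nppa. Since the strand setting is not given, reads of Nppa and Gm13054 cannot be told apart.

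The list of other genes of the natriuretic peptide system held 18 genes. Of these, Pde2a is not analysed here, 8 of the other 17 were tested, and 1 was called higher, 2 were called lower and 5 did not pass. Their median log2 fold change was -0.29. Of all tested genes 8.57% were called higher and 7.81% lower. The genes called lower were Pcsk6 and Corin, listed under processing of the precursors, where Furin and Pam did not pass.

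Among the ligands, Nppc had no count in any library, and Ostn, which encodes osteocrin, a ligand of the clearance receptor, had 1, 0 and 2 counts in knockouts and none in controls. Of the receptors, Npr1, the guanylyl cyclase that binds the products of Nppa and Nppb, had 3, 5 and 5 counts in knockouts and 5, 3 and 4 in controls and was too low to test. Npr2, the receptor of the C-type peptide, had 11, 10 and 8 counts in knockouts and 10, 8 and 10 in controls (log2 fold change -0.51 ± 0.42, edgeR adjusted p = 0.465). Npr3, the clearance receptor, had 19, 11 and 39 counts in knockouts and 13, 18 and 13 in controls (log2 fold change 0.07 ± 0.31, edgeR adjusted p = 0.915). Its 95% interval, -0.56 to 0.69, leaves room for a change in either direction.

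Corin encodes the membrane protease of heart muscle cells that cuts the atrial peptide's precursor. It had 25, 41 and 54 counts in knockouts and 45, 56 and 49 in controls, or 34.1, 48.9 and 55.9 CPM in knockouts and 99.0, 89.5 and 78.0 CPM in controls. Its log2 fold change was -0.90 ± 0.20 (edgeR adjusted p = 2.63e-04). Pcsk6 encodes the proprotein convertase that activates corin. It had 16, 22 and 20 counts in knockouts and 35, 43 and 43 in controls, or 21.8, 26.2 and 20.7 CPM in knockouts and 77.0, 68.7 and 68.4 CPM in controls. Its log2 fold change was -1.63 ± 0.23 (edgeR adjusted p = 3.07e-08), about the size of that of Nppa with the opposite sign. Both calls held in 15 of 16 alternatives. Against total counts with no further scaling, of which most are mtDNA in controls, the median of all tested genes moved by 2.08 and Corin gave 1.10 and Pcsk6 0.37, both below that shift.

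Furin, a convertase that cuts the precursor of the B-type peptide, had 14, 14 and 21 counts in knockouts and 14, 21 and 20 in controls (log2 fold change -0.73 ± 0.29, edgeR adjusted p = 0.0735). Pam, an amidating enzyme abundant in the membrane of atrial secretory granules, had 166, 158 and 204 counts in knockouts and 108, 156 and 104 in controls (log2 fold change -0.06 ± 0.14, edgeR adjusted p = 0.846). Among enzymes of peptide breakdown, Ide, the insulin-degrading enzyme, had 18, 21 and 30 counts in knockouts and 4, 14 and 6 in controls (log2 fold change 0.94 ± 0.34, edgeR adjusted p = 0.0463). That call was lost in 8 of 16 alternative settings, with adjusted p = 0.218 without control 1, 0.255 without control 3, 0.0598 without knockout 1 and 0.139 without knockout 3. Without control 2 its log2 fold change was 1.53 (edgeR adjusted p = 0.0118). Neprilysin, encoded by Mme, had 1, 1 and 5 counts in knockouts and 1, 1 and 3 in controls. Dpp4, a peptidase that trims the B-type peptide, had 2, 1 and 1 counts in knockouts and 1, 2 and 1 in controls.

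Downstream of the receptors, Pde3a, a phosphodiesterase, had 14, 12 and 22 counts in knockouts and 14, 7 and 10 in controls (log2 fold change 0.05 ± 0.35, edgeR adjusted p = 0.952). The remaining genes were too low to test. The cyclic GMP-dependent kinase gene Prkg1 had 6, 3 and 7 counts in knockouts and 0, 10 and 3 in controls. Pde5a had 2, 3 and 2 in knockouts and 0, 9 and 4 in controls, and Pde9a had none in knockouts and 0, 3 and 0 in controls. Kcnj11, a potassium channel subunit, had 3, 8 and 5 counts in knockouts and 2, 3 and 6 in controls.

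**Figure D4:**
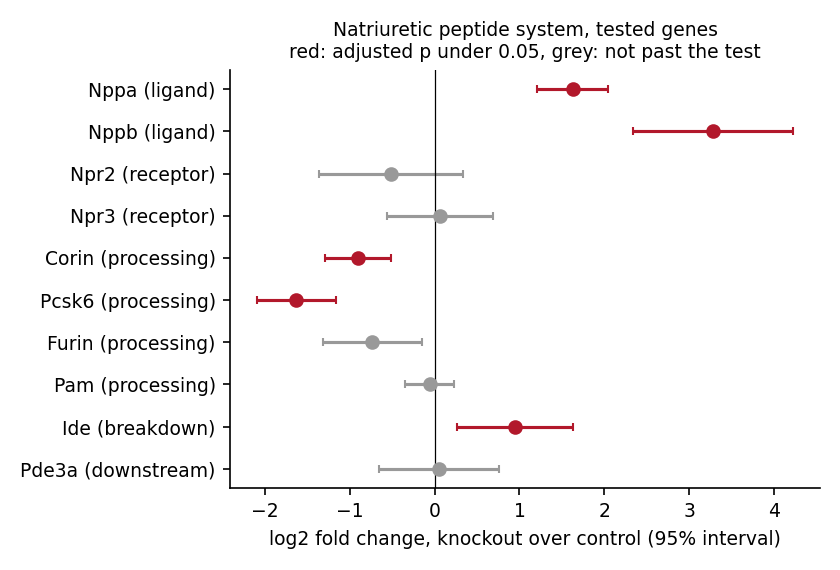
Points give the log2 fold change of knockout over control for the members and the 8 tested genes of the natriuretic peptide system, ordered by role, with 95% intervals; red marks an adjusted p under 0.05. The ligands Nppa (1.63) and Nppb (3.28) are higher, Corin (-0.90) and Pcsk6 (-1.63) are lower except against unscaled total counts, and the receptors Npr2 (-0.51) and Npr3 (0.07) have intervals that include 0.

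Of 26 genes for transcription factors and chromatin regulators known to act on Nppa or Nppb, 9 were tested, and edgeR called 0 higher and 1 lower (median log2 fold change -0.06). At an unadjusted p under 0.05, 1 of the 9, the activator gene Mef2d, was higher (log2 fold change 0.58), and DESeq2, which tested 16 of the list, called 1 higher. Across all 2369 genes tested by edgeR, 341 were higher and 344 lower at that unadjusted threshold, and 8.57% were called higher and 7.81% lower. DESeq2 called 101 of its 3465 tested nuclear genes higher. Gata4, which encodes a cardiac activator of both genes, had 19, 26 and 22 counts in knockouts and 10, 19 and 18 in controls (log2 fold change -0.06 ± 0.29, edgeR adjusted p = 0.925). Tead1, the factor of CATTCC sites, had 43, 72 and 47 counts in knockouts and 42, 56 and 60 in controls (log2 fold change -0.53 ± 0.19, edgeR adjusted p = 0.0385). The Tead1 call held without knockout 2 and was lost without each of the other libraries, with adjusted p between 0.071 and 0.291, and the sign turned (1.47) against unscaled total counts. Outside the naming rule and chosen after its values were seen, Atf4, a stress-response factor too low for the filter, had 30, 12 and 25 counts in knockouts and 3, 3 and 5 in controls. With no filter its log2 fold change was 2.04 (edgeR adjusted p = 2.09e-04).

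Of 16 genes of heart muscle stress and remodelling other than the peptides, 12 were tested, 8 were called higher and 1 lower, and the median log2 fold change was 0.67. Over all tested genes 8.57% were called higher and 7.81% lower, and the median was -0.02. This list was drawn up with results of these libraries known, so its direction is not independent evidence. Acta1, the skeletal muscle actin gene, had 189, 251 and 236 counts in knockouts and 16, 9 and 3 in controls, which gave a log2 fold change of 4.00 ± 0.29 (edgeR adjusted p = 3.96e-09), beside 3.28 for Nppb. Without control 1 it was 4.78. Ankrd1, a titin-binding stretch-response gene named after its values were seen, had 282, 221 and 243 counts in knockouts and 33, 27 and 10 in controls (log2 fold change 2.84 ± 0.45, edgeR adjusted p = 0.0139). The Ankrd1 call was lost among the males (edgeR adjusted p = 0.0729). Xirp2, a gene of intercalated disc and Z-disc repair, rose by 2.12 ± 0.15 on the log2 scale, and Fhl1, a LIM-domain gene of the sarcomere, by 1.66 ± 0.25 (edgeR adjusted p = 1.46e-21 and 1.66e-07). Hspb7, a small heat shock protein gene, rose by 0.83 ± 0.14 (edgeR adjusted p = 3.18e-06). Nrap, a gene of myofibril assembly, rose by 0.51 ± 0.15 (edgeR adjusted p = 0.0118), a call lost in 5 of 16 alternatives. Among these were DESeq2 (adjusted p = 0.0832) and the edgeR fits without control 1 (0.0689) and without control 2 (0.0582). Myh7, the slow myosin heavy chain gene, and Csrp3, a Z-disc LIM gene, were also called higher, by 1.24 ± 0.35 and 0.51 ± 0.18 on the log2 scale. The Myh7 call was lost without control 1 or control 3 and among the males. The Csrp3 call was lost in 8 of 16 alternatives. Among these were DESeq2 (adjusted p = 0.255) and the fits without control 2, control 3 or knockout 1. Atp2a2, the calcium pump of the sarcoplasmic reticulum, fell by 0.93 on the log2 scale (SE 0.16, edgeR adjusted p = 2.71e-06), though against total counts without scaling it gave 1.08. Among the 4 male libraries alone, 4 of the list were called higher, beside 117 of all 2586 genes tested there.

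Of 24 genes for other secreted factors of the stressed heart, 4 were tested and edgeR and DESeq2 called 0 in either direction. At an unadjusted p under 0.05 in edgeR 1, the angiogenic factor Vegfa, was higher (log2 fold change 0.55, adjusted p = 0.11), and 0 were lower. Gdf15, a stress cytokine named after its values were seen, fell below the filter with 18, 7 and 8 counts in knockouts and none in controls. The lower 95% Poisson limit of its ratio was 5.69 (edgeR adjusted p = 1.36e-05 with no filter).

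The nuclear genes most like each member in log2 CPM over the 6 libraries, at or above median expression, were sought by Pearson's r. For Nppa, out of 1153 genes, these included Prkar1a (r = 0.996), the noncoding RNA gene Rmrp (0.995), Rplp0 (0.994) and Cdv3 (0.983). Prkar1a encodes a regulatory subunit of protein kinase A, and it had 135, 128 and 123 counts in knockouts and 39, 39 and 36 in controls (log2 fold change 1.19). For Nppb, out of 1154 genes, they were Kremen1 (0.993), Rpl8 (0.991), Fth1 (0.991), Vaultrc5 (0.986) and Clic5 (0.984). Prkar1a, Rmrp, Rplp0 and Cdv3 were called higher, as were Kremen1, Rpl8 and Clic5, while Fth1 (log2 fold change 0.23) and Vaultrc5 (0.71) did not pass. The Rmrp call was lost in 7 of 16 alternatives, DESeq2 and the fits without control 2, control 3 or knockout 1 among them. The Kremen1 and Rpl8 calls were lost in 3 each, with DESeq2, among the males and without control 2. The 6 points behind each r form 2 groups of 3 libraries, so that r holds the difference between the groups as well as the spread within them. A call of higher among these genes therefore follows in part from how they were chosen.

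The authors' deposited table of the comparison lists Nppa with a log2 fold change of 1.65 (3.13-fold) and a false discovery rate of 3.19e-10, number 72 by log2 fold change of 6319 genes, of which 336 had a false discovery rate under 0.05. The authors' normalised values of Nppa, whole numbers of unstated scale, were 172, 117 and 109 in knockouts and 50, 38 and 38 in controls. Nppb has no row in the authors' deposited table: each of its 6319 genes has at least 1 raw count in all 6 libraries, and control 2 has 0 for Nppb.

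**Figure D5:**
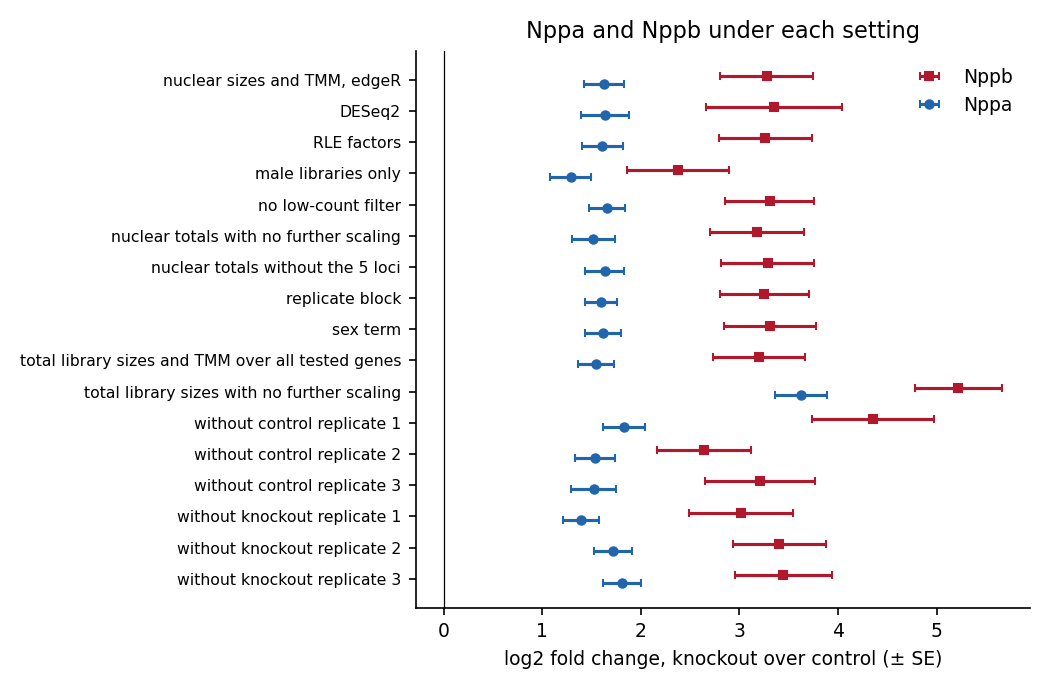
The log2 fold change of knockout over control, with its SE, is on the x axis for Nppa (blue circles) and Nppb (red squares), and each row is a way of scaling, filtering or testing, or a fit with libraries left out. Over the 16 alternatives to the top row, Nppa lies between 1.29 and 3.62 and Nppb between 2.37 and 5.22, all above 0, with the highest values from total library sizes without scaling.

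Over the 16 alternatives both members kept their direction and stayed past the threshold. The lowest values, 1.29 for Nppa and 2.37 for Nppb, came from the 4 male libraries, and the highest adjusted p in edgeR or DESeq2 was 1.11e-05 for Nppa and 0.00116 for Nppb.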

How the data were processed

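RNA of crude heart mitochondria from 3 knockout and 3 control mice was sequenced as paired-end MiSeq libraries made with the TruSeq kit, per the labels' protocols. The submitters' processing notes name featureCounts 1.3.5-p4, HISAT 0.1.6, edgeR 3.11.2, R 3.2.0 and the build GRCm38, without the strand setting or how multiply aligned reads were handled. Raw counts for each gene were deposited by the authors. A second deposited set, normalised and rounded by the authors in a way not stated, was treated as a score. The authors' deposited comparison holds a p-value and its false discovery rate, log2 fold changes, log2 CPM and a likelihood ratio score, as its header names them.

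Raw counts were fitted with edgeR 4.0.16 in R 4.3.3 (quasi-likelihood, robust, no covariate, 2-sided). Library sizes were nuclear counts, TMM used tested nuclear genes, filterByExpr (minimum count 10, minimum total 15) left 2369 genes, and Benjamini-Hochberg adjustment ran over all of them. SEs follow from the F statistic. Single values per library were compared by exact permutation. Genes were named with GENCODE M21. The procedure was tested on simulated data. Alternatives were DESeq2 1.42.0 on nuclear genes only, other scalings, no filter, a replicate block and each library left out. A sex term and the male libraries alone were alternatives chosen after seeing the data. The members, lists and tests were chosen with earlier results of these data known. Named genes are the members, all genes of the natriuretic peptide list and those within 100 kb, up to 6 called genes of each other list by adjusted p, and the 5 most like each member among named nuclear genes of at least median expression; some of these are not reported here. Replicates differed beyond sampling noise (chi-square per degree of freedom 1.30 to 6.26 over nuclear genes). Poisson intervals and floors cover counting error only, and edgeR intervals also hold the spread between libraries. Replicate numbers were not treated as pairs in the fit reported, and a check of same-numbered libraries could not exclude pairing.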

Additional observations from a re-analysis of the deposited data

How the results depend on the processing

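Nppa and Nppb stayed called higher in all 16 alternatives, and with each library left out in turn their log2 fold changes ranged from 1.39 to 1.83 and from 2.64 to 4.35. The difference of the log2 count ratio, to which scaling does not apply, ranged from 1.02 to 2.54. Without a library 152 to 196 genes were called higher and 126 to 166 lower, beside 203 and 185 in the fit reported. DESeq2, run on nuclear genes only, called 101 higher and 62 lower, beside 203 and 167 nuclear genes in the fit reported. The male libraries gave 117 and 85, and no filter 122 lower. Total library sizes with no scaling gave 3325 higher and 18 lower, with the median moved by 2.08. Of the calls, 52.3% were higher. This share was 41.8% with nuclear totals and no TMM and 62.0% in DESeq2, which left out mtDNA. In the natriuretic peptide list, 0 were called higher with DESeq2, no filter, nuclear totals without TMM or TMM over all tested genes, 7 (and 0 lower) with unscaled total sizes, and 0 to 1 without a library. Of the regulators, 1 was called higher with DESeq2, no filter and TMM over all tested genes, 14 with unscaled total sizes and 0 to 1 without a library; 0 were called lower with DESeq2, the males, no filter and unscaled totals, and 0 to 1 without a library. Of the stress genes 4 were called higher among males and 6 to 9 without a library, and 0 lower with unscaled totals. Secreted factors called higher numbered 1 with no filter, 1 with TMM over all tested genes and 5 with unscaled totals. Under unscaled totals Corin (1.10), Pcsk6 (0.37), Tead1 (1.47) and Atp2a2 (1.08) changed sign, less than the median moved. Where other counts changed, the cause was not tested. Of the 21 called genes of the natriuretic peptide, regulator, stress and secreted factor lists and of those most like a member, 8 kept their call in every alternative and 11 in every one but unscaled totals. Same-numbered libraries had correlations of 0.000782, 0.0168 and 0.0650, beside -0.0446 to 0.0252 for the other pairs. With 3 libraries in a group, such values cannot exclude that the numbers pair the samples. With the replicate block the log2 fold change was 1.60 for Nppa and 3.25 for Nppb, 206 genes were called higher and 181 lower, the count ratio differed by 1.92, and neither the members' calls nor the counts of those 4 lists changed. Depth limits Nppb, with 6 counts over 3 controls, and leaves 9 genes of the natriuretic peptide list untested.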
